A study of Mus musculus with 12 samples.

Results

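RNA for 10 genes of the Notch pathway was measured in tibialis anterior (TA) muscle, a muscle of the lower hindlimb, before birth, in young mice and in adult mice. The 10 genes are 3 receptors (Notch1, Notch2 and Notch3), 4 ligands (Dll1, Dll4, Jag1 and Jag2) and 3 target genes (Hes1, Hey1 and Heyl), chosen by name and matched by symbol to 10 of the 55450 Ensembl genes in the table of read counts. All mice were wild type (WT) of the 129Pas strain and carried no treatment or transgene that the labels name. There were 4 samples at E18.5 (late in gestation), 4 at 2 weeks (wks) and 4 at 7 wks of age, each 1 library of polyadenylated RNA, and the ages were compared to follow muscle during development after birth. Libraries held 63018968 to 123449246 counted read pairs, and the 10 genes received 199 to 11659 of them in a library, so the variation among samples outweighed counting noise. All 10 genes passed the filter on low counts. The study's figure legend gives 4 mice per age for this RNA sequencing, while the sample labels do not name the mouse. The p-values measure the spread between these samples.

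Notch receptors are single-pass membrane proteins that are cut when a ligand on a neighbouring cell binds them. The freed intracellular part enters the nucleus, joins the DNA-binding protein RBPJ and switches on target genes, among them the Hes and Hey repressors. In skeletal muscle the pathway is known for keeping satellite cells, the muscle stem cells, undifferentiated, and in blood vessels it shapes arteries and the mural cells around them. The libraries come from whole muscle pieces, so fewer cells of a type and less RNA per cell cannot be told apart.

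The promoters of the 2 gene pairs whose ratio turned with age are shown first, as the 250 bases before the transcription start in RefSeq (build GRCm38.p6). A RefSeq promoter was matched for 7 of the 10 genes (Notch1, Notch2, Notch3, Dll1, Dll4, Jag1 and Jag2), with 8 windows in all since Dll1 has 2. Printed are the receptor pair Notch1 and Notch2 and the ligand pair Dll4 and Jag1, each 5′ to 3′ on the strand of the gene. Capitals mark each GC box, searched as GGGCGG on both strands, a short element bound by Sp1-type factors.
Notch1, chr2:26503823-26504072, minus strand: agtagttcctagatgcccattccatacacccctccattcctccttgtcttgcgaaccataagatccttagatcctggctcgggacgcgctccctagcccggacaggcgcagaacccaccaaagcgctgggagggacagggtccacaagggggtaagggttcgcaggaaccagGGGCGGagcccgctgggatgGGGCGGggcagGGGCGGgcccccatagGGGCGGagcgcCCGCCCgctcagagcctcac
Notch2, chr3:98013288-98013537, plus strand: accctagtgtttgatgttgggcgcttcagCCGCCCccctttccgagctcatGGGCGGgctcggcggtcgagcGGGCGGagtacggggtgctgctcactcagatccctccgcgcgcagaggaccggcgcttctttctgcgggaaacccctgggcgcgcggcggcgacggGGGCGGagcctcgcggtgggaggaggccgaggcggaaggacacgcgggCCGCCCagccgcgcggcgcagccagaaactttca
Dll4, chr2:119325534-119325783, plus strand: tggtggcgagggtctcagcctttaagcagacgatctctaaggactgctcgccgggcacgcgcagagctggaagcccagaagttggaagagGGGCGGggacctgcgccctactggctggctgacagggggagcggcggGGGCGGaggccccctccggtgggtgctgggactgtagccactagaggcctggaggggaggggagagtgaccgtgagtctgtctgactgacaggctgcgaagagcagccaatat
Jag1, chr2:137116521-137116770, minus strand: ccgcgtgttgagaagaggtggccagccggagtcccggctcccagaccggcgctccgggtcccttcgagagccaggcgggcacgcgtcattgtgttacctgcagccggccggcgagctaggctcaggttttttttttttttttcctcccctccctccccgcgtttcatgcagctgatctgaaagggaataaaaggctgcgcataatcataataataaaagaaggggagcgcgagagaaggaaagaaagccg
The Notch1 and Notch2 windows each held 5 GC boxes, the Dll4 window 2 and the Jag1 window none, while 32.7% of all 32851 RefSeq windows of this length held at least 1. Among the windows not printed, Notch3 had 4 GC boxes, Jag2 5 (of which 2 overlap) and Dll1 none in either window. The core letters of the RBPJ site, TGGGAA on either strand, were in none of the 8 windows and in 21.6% of all windows. An E-box form that Hes and Hey repressors can bind, CACGTG, was also in none of the 8 and in 6.02% of all windows. Other sites of these repressors were not searched. TATAAA was in none of the 8 and in 12.4% of all windows. These counts describe letters in a short window.

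Read counts were scaled between libraries by TMM, a method that assumes that most genes do not change, and are given as CPM, counts in proportion to the scaled library size. Age changed the make-up of the RNA: the 20 most abundant genes took 13.7 to 16.1% of counts in the E18.5 samples, 33.2 to 35.6% in the 2-wk samples and 36.4 to 37.8% in the 7-wk samples. Scaling to the total count instead moved the median log2 fold change of all genes from -0.09 to -1.02 between E18.5 and 2 wks, from -0.03 to -0.38 between 2 and 7 wks and from -0.09 to -1.36 between E18.5 and 7 wks. Libraries also differed in how counts depend on the GC content of transcripts, and the transcripts of the 10 genes run from 49.2% GC (Jag1) to 61.1% (Jag2). The directions of the 10 genes are therefore given with their values on the total count and after removal of the GC trend of each library.

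Between E18.5 and 2 wks the 10 genes moved in both directions. Dll4, Jag2 and Dll1 rose 3.54-fold, 4.79-fold and 2.12-fold, and Notch2 and Jag1 fell to 0.35 and 0.546 of their level. These 5 genes had no overlap between the samples of the ages and kept their direction under both other scalings. Notch1, Notch3 and Heyl were also called higher, by 1.52-fold, 1.69-fold and 1.34-fold, but were lower at 2 wks on the total count and after GC removal. In edgeR's quasi-likelihood test 8 of the 10 genes passed an adjusted p of 0.05 (6 higher and 2 lower), where 65.7% of all 19276 genes tested passed (31.5% higher and 34.2% lower). A median log2 fold change of 0.62 was found over the 10 genes and of -0.09 over all genes. It turned to -0.29 on the total count (all genes -1.02) and to -0.40 after GC removal (all genes -0.20). No overlap between the ages was seen for 5 of the 10 and for 61.3% of all genes. On the total count 2 of the 10 were called higher and 4 lower (all genes 75.1%, as 13.2% and 61.9%), and after GC removal 3 higher and 4 lower (all genes 66.2%, as 27.4% and 38.8%).

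Between 2 and 7 wks no gene of the 10 was called higher and 5 were called lower, namely Notch2, Notch3, Dll1, Hey1 and Heyl, where 27.5% of all genes were called (13.5% higher and 13.9% lower). Over the 10 genes the median log2 fold change was -0.65, against -0.03 for all genes, and 4 of the 10 did not overlap between the ages (33.7% of all genes). The count rested on single libraries. It was 2 without 2-wk sample 1 or without 7-wk sample 1, 3 without 2-wk sample 2 or without any 1 of 7-wk samples 2, 3 and 4, and 7 without E18.5 sample 1. On the total count 8 genes were called lower and none higher (all genes 32.9%, as 28% and 4.92%), and after GC removal 3 and none (all genes 32.8%, as 19.2% and 13.6%).

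Comparing adults with E18.5 directly, Dll4 and Jag2 were higher and Notch2 and Jag1 lower, so 4 of the 10 were called where 71.4% of all genes were (34.3% higher and 37.1% lower). Dll4 was above and Notch2 and Jag1 were below without overlap, 3 of the 10, against 63.4% of all genes (30.2% above and 33.3% below). Notch1, Notch3, Dll1, Hes1, Hey1 and Heyl differed by no more than 0.23 on the log2 scale in either direction and were not called, with intervals given below. On the total count none was higher and 8 were lower (all genes 80.9%, as 11.9% and 69%), and after GC removal 2 were higher and 7 lower (all genes 75.1%, as 30.6% and 44.5%). The change after 2 wks was also tested against the change before it. This difference was below 0 and called for 7 genes, Notch1, Notch3, Dll1, Dll4, Jag2, Hey1 and Heyl, and for 38.4% of all genes (16.8% above 0 and 21.6% below). On the total count it was called for 5 of the 10, 2 above 0 and 3 below (all genes 43.7%, as 31.7% and 12.1%), and after GC removal for 4, 1 above and 3 below (all genes 32.2%, as 15.1% and 17.1%).

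**Figure D1:**
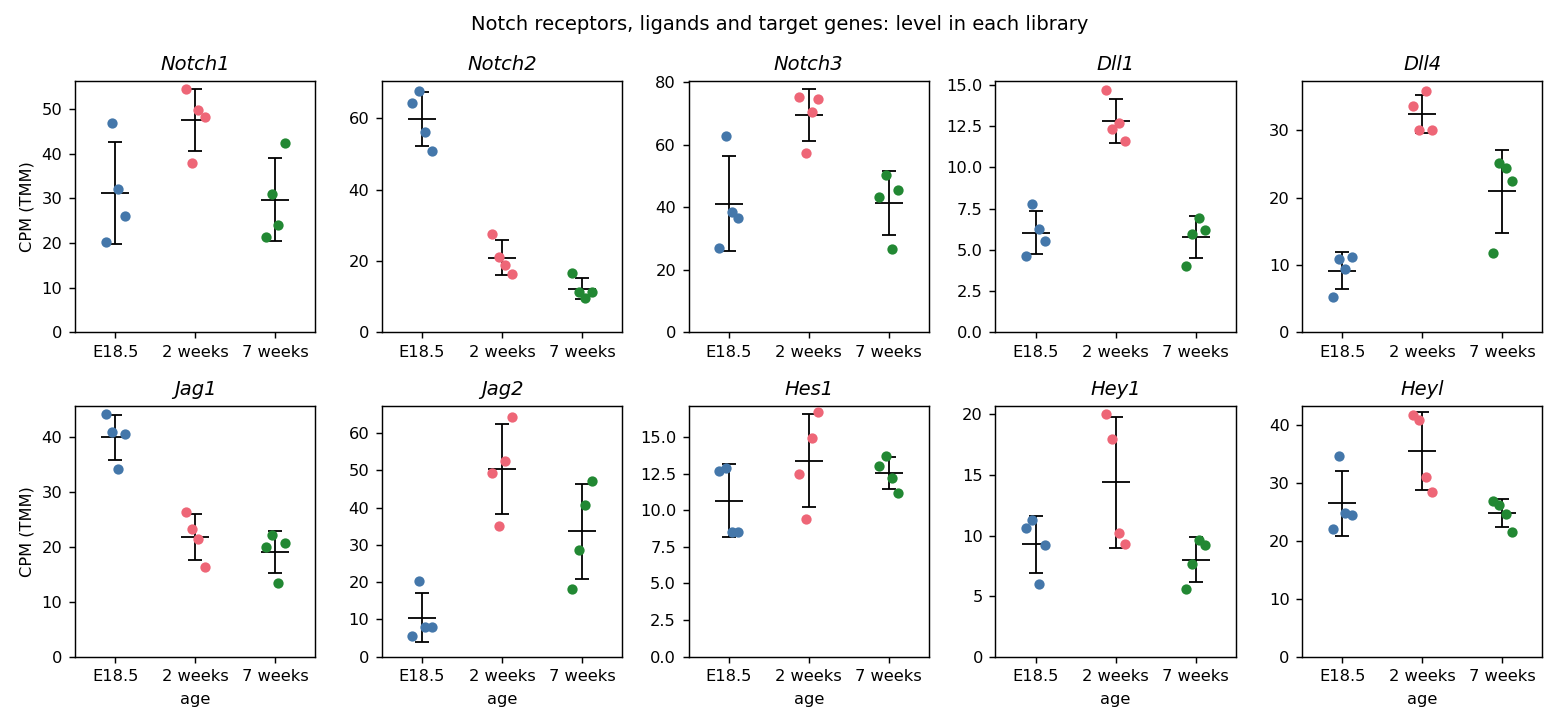
Level of each gene in CPM (TMM scaling, linear axis from 0) against age; each point is 1 sample and the bars give the mean ± SD of 4 samples. Notch2 and Jag1 are at their highest at E18.5, while Dll1, Dll4 and Jag2 have their highest mean at 2 wks; on the total count the rise of Dll1 to 2 wks is not called.

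**Figure D2:**
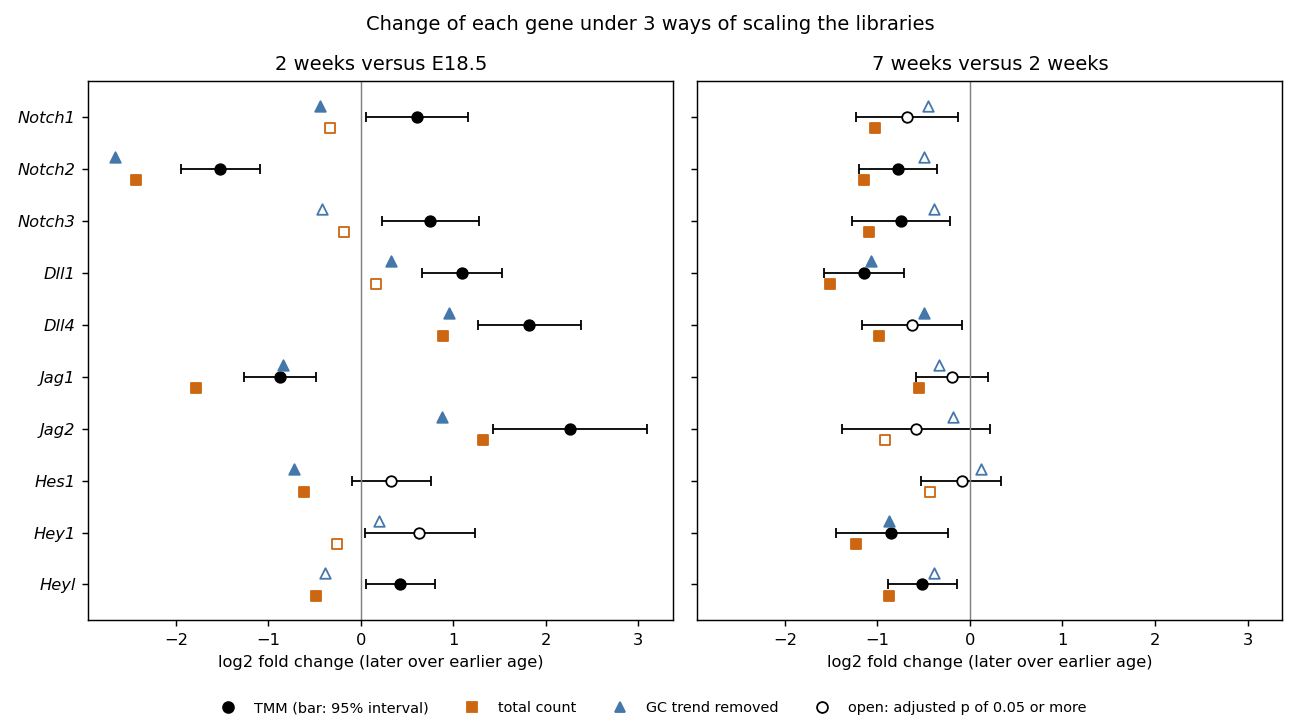
Log2 fold change of each gene (later over earlier age) for TMM (circles, with 95% intervals), the total count (squares) and after removal of the GC trend (triangles); filled symbols passed an adjusted p of 0.05. In the left panel the symbols of Notch2, Jag1, Dll1, Dll4 and Jag2 stay on 1 side of 0, and those of Notch1, Notch3, Hes1, Hey1 and Heyl lie on both.

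Among the receptors, Notch2 (chromosome 3, 97920800 to 98057677, plus strand, GRCm39) fell at each step. Its levels were 64.3, 67.6, 56.2 and 51 CPM in the 4 E18.5 samples, 27.6, 21, 18.8 and 16.2 CPM at 2 wks and 16.5, 11.3, 9.65 and 11.4 CPM at 7 wks. Every E18.5 sample was above every later sample, while the lowest 2-wk sample was just below the highest 7-wk sample. Its change on the log2 scale was -1.52 ± 0.20 (SE; adjusted p = 1.82e-05) up to 2 wks and -0.78 ± 0.19 (adjusted p = 0.00996) after, which together left adults with 0.204 of the E18.5 level (adjusted p = 3.19e-07; called lower under both other scalings). With total-count scaling these steps were -2.43 and -1.14, both called. After GC removal they were -2.66, called, and -0.50, not called.

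Notch1 (chromosome 2, 26347915 to 26406675, minus strand), a receptor of satellite cells and of endothelium, followed another course. It measured 20.2, 46.9, 32 and 26 CPM at E18.5, 54.5, 38, 49.8 and 48.2 CPM at 2 wks and 21.4, 30.9, 24.1 and 42.4 CPM at 7 wks. E18.5 sample 2 was within the range of the 2-wk samples, so the ages overlapped. The log2 fold change up to 2 wks was 0.61 ± 0.26 (adjusted p = 0.0498), a call lost without any 1 of 8 libraries (E18.5 samples 1, 3 and 4, 2-wk samples 1, 3 and 4, 7-wk samples 2 and 3; 0.44 to 0.62) and turned to -0.33 on the total count (not called) and -0.44 after GC removal (called, lower). Upper-quartile factors (0.47), all genes kept (0.56), a minimum of 10 counts per library (0.49) and DESeq2 (0.56, adjusted p = 0.0596) did not call it either. After 2 wks the change was -0.68 ± 0.26 (adjusted p = 0.0638), called lower on the total count (-1.03; -0.45 and not called after GC removal), with upper-quartile factors (-0.78), by DESeq2 (adjusted p = 0.0433) and without E18.5 sample 1, E18.5 sample 2 or 7-wk sample 4. Adults against E18.5 gave -0.07 with TMM (interval -0.62 to 0.48), but -1.35 on the total count and -0.89 after GC removal, both called lower.

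Notch3 (chromosome 17, 32339794 to 32385893, minus strand) is known best from vascular mural cells. Its levels were 26.9, 62.6, 38.5 and 36.4 CPM at E18.5, 75.3, 57.2, 70.5 and 74.4 CPM at 2 wks and 43.2, 50.1, 26.7 and 45.4 CPM at 7 wks. As for Notch1, E18.5 sample 2 was the high one and the only E18.5 sample above a 2-wk sample, and all 7-wk samples were below all 2-wk samples. In the test its log2 fold change was 0.75 ± 0.24 (adjusted p = 0.014) up to 2 wks, against -0.18 on the total count and -0.42 after GC removal, neither called. It was -0.75 ± 0.24 (adjusted p = 0.0353) after 2 wks, -1.09 on the total count (called) and -0.39 after GC removal (not called). That fall lost its call without any 1 of 2-wk samples 1, 3 and 4 or 7-wk samples 1, 3 and 4 (-0.58 to -0.79). Adults differed from E18.5 by 0.01 (interval -0.51 to 0.53) with TMM, but by -1.27 on the total count and -0.81 after GC removal, both called lower.

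The ligands divided in the first interval. Jag1 (chromosome 2, 136923373 to 136958693, minus strand), a ligand of endothelial and smooth muscle cells, measured 44.2, 40.9, 34.2 and 40.5 CPM at E18.5, 26.3, 23.3, 21.4 and 16.3 CPM at 2 wks and 20, 22.2, 13.5 and 20.7 CPM at 7 wks. All E18.5 samples were above all older samples, and the 2-wk and 7-wk samples overlapped. It fell by 0.87 ± 0.18 on the log2 scale up to 2 wks (adjusted p = 0.000799; 1.78 on the total count, 0.84 after GC removal, both called). The change after 2 wks was -0.19 ± 0.18 (adjusted p = 0.456, interval -0.58 to 0.20), though -0.55 and called on the total count and -0.34 and not called after GC removal. Adults had 0.478 of the E18.5 level (adjusted p = 0.00013; called lower under both other scalings).

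Dll4 (chromosome 2, 119156170 to 119166443, plus strand), the delta ligand of arterial and sprouting endothelium, went the other way. It measured 5.24, 10.9, 9.34 and 11.1 CPM at E18.5, 33.6, 30, 35.8 and 30.1 CPM at 2 wks and 11.8, 25.1, 24.4 and 22.5 CPM at 7 wks. The 3 ages did not overlap, and the lowest sample at E18.5 and at 7 wks was sample 1 of each age. Up to 2 wks its log2 fold change was 1.82 ± 0.26 (adjusted p = 3.77e-05; 0.89 on the total count and 0.95 after GC removal, both called). After 2 wks it was -0.63 ± 0.25 (adjusted p = 0.079). That decrease was called on the total count (-0.98), after GC removal (-0.50) and without E18.5 sample 1 (-0.63). Adults held 2.29 times the E18.5 level (adjusted p = 0.000781; called after GC removal, but -0.09 and not called on the total count).

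Jag2 (chromosome 12, 112871421 to 112893437, minus strand), the ligand with the GC-richest transcript of the 10, measured 5.48, 20.3, 8.08 and 8.11 CPM at E18.5, 49.4, 35.1, 52.4 and 64.3 CPM at 2 wks and 18.2, 28.7, 40.7 and 47 CPM at 7 wks. E18.5 sample 2 was more than 2 times any other E18.5 sample, but the E18.5 and 2-wk samples did not overlap. Jag2 had a log2 fold change up to 2 wks of 2.26 ± 0.39 (adjusted p = 0.000184), 2.80 without E18.5 sample 2, 1.32 on the total count and 0.88 after GC removal, called in each. After 2 wks it was -0.58 ± 0.37 (adjusted p = 0.267, interval -1.38 to 0.22), and -0.92 on the total count and -0.18 after GC removal, neither called. Adults were at 3.21 times E18.5 (adjusted p = 0.00127; on the log2 scale 0.40 and not called on the total count, 0.70 and called after GC removal), and E18.5 sample 2 was above 7-wk sample 1.

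Dll1 (chromosome 17, 15587276 to 15597134, minus strand), the ligand known from embryonic muscle progenitors, was the least abundant ligand in counts at every age. It measured 4.64, 7.76, 6.24 and 5.5 CPM at E18.5, 14.7, 12.3, 12.7 and 11.6 CPM at 2 wks and 3.99, 5.98, 6.95 and 6.22 CPM at 7 wks. All 2-wk samples were above all others, and the E18.5 and 7-wk samples overlapped. Dll1 had a log2 fold change of 1.09 ± 0.20 (adjusted p = 0.000331) up to 2 wks and -1.15 ± 0.20 (adjusted p = 0.00133) after. The rise was 0.33 after GC removal (called) and 0.16 on the total count (not called), and the fall was -1.07 and -1.51 (both called). Adults differed from E18.5 by -0.06 with TMM (interval -0.49 to 0.37), and by -1.35 on the total count and -0.73 after GC removal, both called lower. Of the exon bases of Dll1, 27.6% lie opposite exons of Fam120b, which had 1616 to 4507 counts a library; the strand setting of the counting is not given in the sources used here, so reads of the pair may not be fully told apart. Notch1, Notch3 and Dll4 share 14%, 8.92% and 15.6% of their exon bases with opposite non-coding genes (0610009E02Rik, Gm17276 and Gm14207), which had at most 114, 161 and 231 counts.

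Of the target genes, Hes1 (chromosome 16, 29882134 to 29886643, plus strand), a repressor that many cell types use, measured 12.7, 12.9, 8.54 and 8.48 CPM at E18.5, 12.5, 9.41, 14.9 and 16.7 CPM at 2 wks and 13, 13.7, 12.2 and 11.2 CPM at 7 wks. The ages overlapped in each comparison. The log2 fold change was 0.33 ± 0.20 up to 2 wks (adjusted p = 0.162, interval -0.10 to 0.76) and -0.09 ± 0.20 after (adjusted p = 0.759, interval -0.53 to 0.34). Other scalings turned the first value to -0.61 (total count) and -0.72 (GC removal), both called lower, and without 2-wk sample 2 it was called higher (0.48), while the second value was -0.43 and 0.12, neither called. Adults against E18.5 gave 0.23 (interval -0.20 to 0.66), turned to -1.04 on the total count (called lower) and -0.61 after GC removal (not called).

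Hey1 (chromosome 3, 8726956 to 8732385, minus strand), a repressor of arterial endothelium among other cells, measured 10.6, 11.3, 6.01 and 9.21 CPM at E18.5, 20, 18, 10.2 and 9.34 CPM at 2 wks and 5.56, 7.63, 9.64 and 9.22 CPM at 7 wks. The 2-wk samples fell into a higher and a lower pair, with samples 1 and 2 the higher. The log2 fold change up to 2 wks was 0.63 ± 0.28 (adjusted p = 0.0585), called without E18.5 sample 2 (0.74), 2-wk sample 3 (0.77), 2-wk sample 4 (0.80) or 7-wk sample 1 (0.64), and -0.26 on the total count and 0.20 after GC removal, neither called. It fell by 0.85 ± 0.28 after 2 wks (adjusted p = 0.0378; 1.23 on the total count and 0.87 after GC removal, both called). That call was lost without 2-wk sample 1 or 2 or 7-wk sample 1, 2 or 4 (-0.66 to -0.92). Hey1 in adults against E18.5 was at -0.21 (interval -0.81 to 0.38), -1.49 on the total count and -0.67 after GC removal, the latter both called lower.

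Heyl (chromosome 4, 123127349 to 123143682, plus strand), a target found in mural and satellite cells, measured 22, 34.6, 24.8 and 24.4 CPM at E18.5, 41.7, 40.8, 31 and 28.4 CPM at 2 wks and 26.9, 26.2, 24.6 and 21.5 CPM at 7 wks. All 7-wk samples were below all 2-wk samples, and E18.5 sample 2 was within the 2-wk range. The log2 fold change up to 2 wks was 0.42 ± 0.17 (adjusted p = 0.0436), -0.49 on the total count (called, lower) and -0.39 after GC removal (not called), and lost its call without any 1 of E18.5 samples 1, 3 and 4, 2-wk samples 1 and 2 or 7-wk sample 2 (0.34 to 0.43). It was not called with upper-quartile factors (0.29), all genes kept (0.37), a minimum of 10 counts per library (0.31), the 8 libraries alone (0.42) or DESeq2 (0.37). The change after 2 wks was -0.52 ± 0.17 (adjusted p = 0.0402), called on the total count (-0.88), not after GC removal (-0.39), and not without any 1 of E18.5 sample 3, 2-wk samples 1 and 2 or the 4 7-wk samples (-0.44 to -0.56). Heyl in adults against E18.5 was at -0.09 (interval -0.46 to 0.28), -1.37 on the total count and -0.78 after GC removal, the latter both called lower.

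Ratios of 2 genes within a library do not depend on how libraries are scaled, and 6 were set up. The ratio of Notch2 to Notch1 counts was 3.18, 1.44, 1.76 and 1.96 in the E18.5 samples, 0.507, 0.552, 0.379 and 0.337 at 2 wks and 0.769, 0.365, 0.4 and 0.27 at 7 wks. Notch2 had more counts than Notch1 in all 4 E18.5 samples and fewer in all 8 older samples. The geometric mean was 1.99, 0.435 and 0.417, a log2 difference of -2.20 up to 2 wks and -0.06 after. The ratio of Jag1 to Dll4 was 8.43, 3.75, 3.66 and 3.64 at E18.5, 0.785, 0.777, 0.597 and 0.542 at 2 wks and 1.7, 0.886, 0.552 and 0.921 at 7 wks. Jag1 exceeded Dll4 in every E18.5 sample and was below it in 7 of the 8 older samples. The log2 difference up to 2 wks was -2.77 and after 2 wks 0.49. For both ratios the E18.5 samples stood apart from each older age, with a two-sided exact permutation p of 0.0286, the smallest that 70 regroupings of 4 against 4 can give, and 0.0735 after Benjamini-Hochberg adjustment over the 18 tests, so neither passed. With the GC trend removed the differences up to 2 wks were -2.18 and -1.81.

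Dll1 fell behind Dll4 step by step, with a ratio of 0.676, 0.396 and 0.283 (geometric means). Each of its 3 comparisons had an exact permutation p of 0.0286 (adjusted 0.0735), with log2 differences of -0.77, -0.49 and -1.26. Notch3 to Notch1 was 1.32, 1.46 and 1.40, and at E18.5 and 2 wks the samples kept within 1.2 to 1.4 and 1.38 to 1.54 although the level of either gene varied more. At 7 wks this ratio spread over 1.07 to 2.02. Its difference up to 2 wks was 0.15 (exact permutation p = 0.0571, adjusted 0.129). The ratio of Hey1 to Hes1 (0.866, 1.04 and 0.627) and of Heyl to Hes1 (2.49, 2.67 and 1.98) overlapped between neighbouring ages, with exact permutation p from 0.143 to 0.8 over their 6 comparisons.

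**Figure D3:**
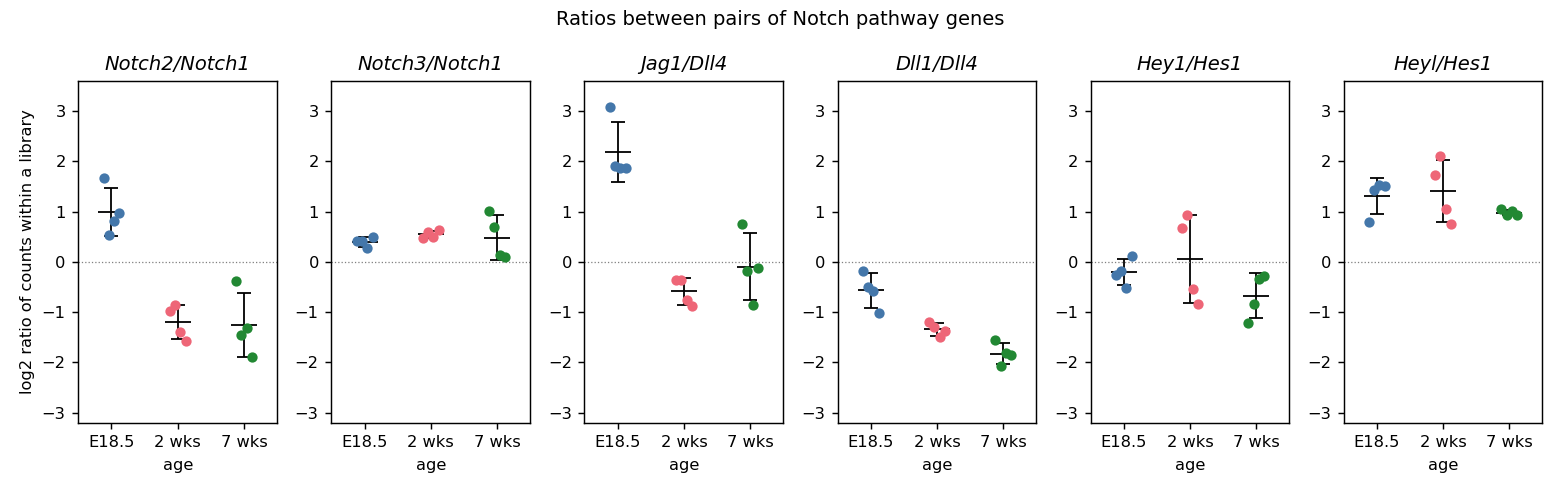
Log2 ratio of the counts of 2 genes within each library against age; points are samples, bars the mean ± SD of 4 samples, and the dotted line is equal counts. Notch2/Notch1 and Jag1/Dll4 are above the line in all 4 E18.5 samples and below it in 8 and 7 of the 8 older samples.

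Per kilobase of canonical transcript, the scale on which different genes can be set side by side, Notch2 made up 41.5 ± 8.06% (SD, n = 4) of the 3 receptors in E18.5 samples, and then 12.8 ± 2.67% and 12.6 ± 3.40% in the older ages. Notch3 made up 35.5 ± 4.96%, 55.1 ± 2.32% and 54.1 ± 5.26%, and Notch1 23 ± 3.32%, 32.1 ± 1.11% and 33.3 ± 6.94%. These shares leave out Notch4, which is followed with the wider pathway. With merged exon lengths Notch3 had 59.7% at 2 wks and Notch2 14.4%. Among the 4 ligands the share of Jag1 was 55 ± 9.79%, 15.3 ± 3.47% and 21.1 ± 7.91%. Jag2 took 15 ± 6.82%, 38.5 ± 6.98% and 38.1 ± 7.17%, Dll4 18.4 ± 4.62%, 33.6 ± 2.67% and 32.3 ± 4.59%, and Dll1 11.5 ± 1.49%, 12.6 ± 1.43% and 8.56 ± 0.734%. By mean, Jag1 was thus the largest ligand share at E18.5, and Jag2 and Dll4 were the larger shares at both later ages. At 7 wks the samples of Jag1 (12.8 to 31.5%) overlapped those of Dll4 (27.8 to 37.5%), while Jag2 was at 31.9 to 45.3%.

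Over all 10 genes the order of mean CPM per kilobase at E18.5 was Hes1 (6.97), Jag1 (6.95), Heyl (5.81), Notch2 (5.66), Notch3 (5.09), Notch1 (3.30), Hey1 (2.39), Dll4 (2.38), Jag2 (2.03) and Dll1 (1.48), and every neighbouring pair overlapped between samples. At 2 wks it ran from Jag2 (9.74), Hes1 (8.76), Notch3 (8.58), Dll4 (8.42) and Heyl (7.80) to Notch1 (5.02), Jag1 (3.8), Hey1 (3.71), Dll1 (3.15) and Notch2 (1.98). Neighbours did not overlap at 2 places in that order, between Heyl and Notch1 and between Dll1 and Notch2. At 7 wks Hes1 (8.20) led Jag2 (6.52), and Notch2 (1.16) was again at the bottom, with all neighbours overlapping.

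The rest of the pathway was followed with a list of 49 genes, of which 45 could be tested; Dll3, Hes2, Hes3 and Hes5 had at most 10 counts in any library. Between E18.5 and 2 wks 15 rose and 14 fell (29 of 45, where 65.7% of all genes were called), with a median log2 fold change of -0.01. Scaled to the total count 3 were higher and 29 lower, where 13.2% and 61.9% of all genes were (median -0.94, all genes -1.02). After GC removal 6 were higher and 19 lower, where 27.4% and 38.8% of all genes were (median -0.27, all genes -0.20). All 10 genes for modification of ligands and receptors were called (7 higher and 3 lower), but 1 higher and 4 lower on the total count and after GC removal alike. Called for the cleavage machinery were 3 higher and 3 lower of 9, for the nuclear complex 2 and 2 of 10, for negative regulators and turnover 2 and 3 of 9, for other receptors and ligands 1 and 2 of 4, and for other Hes and Hey genes 0 and 1 of 3.

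Rbpj, the DNA-binding partner of all Notch receptors, fell from 78.2 ± 15.7 CPM (SD, n = 4; 68.1 to 101) at E18.5 to 27.7 ± 2.34 (24.7 to 29.6) at 2 wks and was 36.6 ± 8.32 (28.3 to 47.7) at 7 wks. Its log2 fold change was -1.50 ± 0.18 (adjusted p = 9.57e-06; -2.43 on the total count and -1.02 after GC removal, both called) and then 0.41 ± 0.18 (adjusted p = 0.104). Mib1, the ubiquitin ligase that lets ligands be taken up, fell from a mean of 79.2 CPM (64.2 to 106) to 33.2 CPM (30.4 to 35.1) (log2 fold change -1.25, adjusted p = 0.000217). Also lower, and called under both other scalings, were the non-canonical ligands Dlk1 (-3.66) and Dner (-1.54), the gamma-secretase subunit Aph1c (-1.38), the ubiquitin ligases Itch (to 0.5 of its level) and Dtx4 (-1.19) and the repressor Hey2 (-1.44).

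Among those higher at 2 wks and called under both other scalings were Notch4, the endothelial receptor (8.20 ± 2.14 to 49.8 ± 12.1 CPM, log2 fold change 2.60, adjusted p = 8.03e-06), and Neurl1a, a ubiquitin ligase (19.3 ± 4.95 to 156 ± 21.8 CPM, 3.01, adjusted p = 1.44e-07). The Fringe glycosyltransferases Mfng (1.37) and Rfng (1.48), the protease Furin (1.44), and Mib2 (1.35) were called with TMM alone, and after GC removal Mib2 was at -0.08. Psenen (1.19), a gamma-secretase subunit, was called after GC removal (1.03) and not on the total count (0.26).

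Between 2 and 7 wks 4 of the 45 rose and 8 fell (27.5% of all genes called). On the total count 1 rose and 15 fell (all genes 32.9%, as 4.92% and 28%). After GC removal 5 rose and 5 fell (all genes 32.8%, as 13.6% and 19.2%). Without 2-wk sample 1, 2-wk sample 2 or 7-wk sample 4 the 12 calls with TMM became 7. Dlk1 fell further, from 28.7 ± 17.8 to 0.918 ± 0.324 CPM (log2 fold change -4.96, adjusted p = 2.69e-05), and the acetyltransferase Kat2b rose from 62.6 ± 12.4 to 132 ± 18.0 CPM (1.08, adjusted p = 0.00146). Dner (-1.64) and Nrarp (-0.91), a Notch target that limits signalling, were lower. These 4 were called under both other scalings. The falls of Notch4 (-0.97), Neurl1b (-0.91), Numbl (-1.16), Dtx4 (-0.69) and Hes6 (-0.73) were called on the total count but not after GC removal. The rises of Neurl1a (0.66) and Ep300 (0.79) were called after GC removal but not on the total count, and that of Cir1 (0.48) under neither. None of the 9 cleavage genes was called with TMM. Adults against E18.5 gave 14 higher and 17 lower of 45 (71.4% of all genes called). On the total count 2 were higher and 36 lower (all genes 80.9%, as 11.9% and 69%). After GC removal 11 were higher and 24 lower (all genes 75.1%, as 30.6% and 44.5%).

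**Figure D4:**
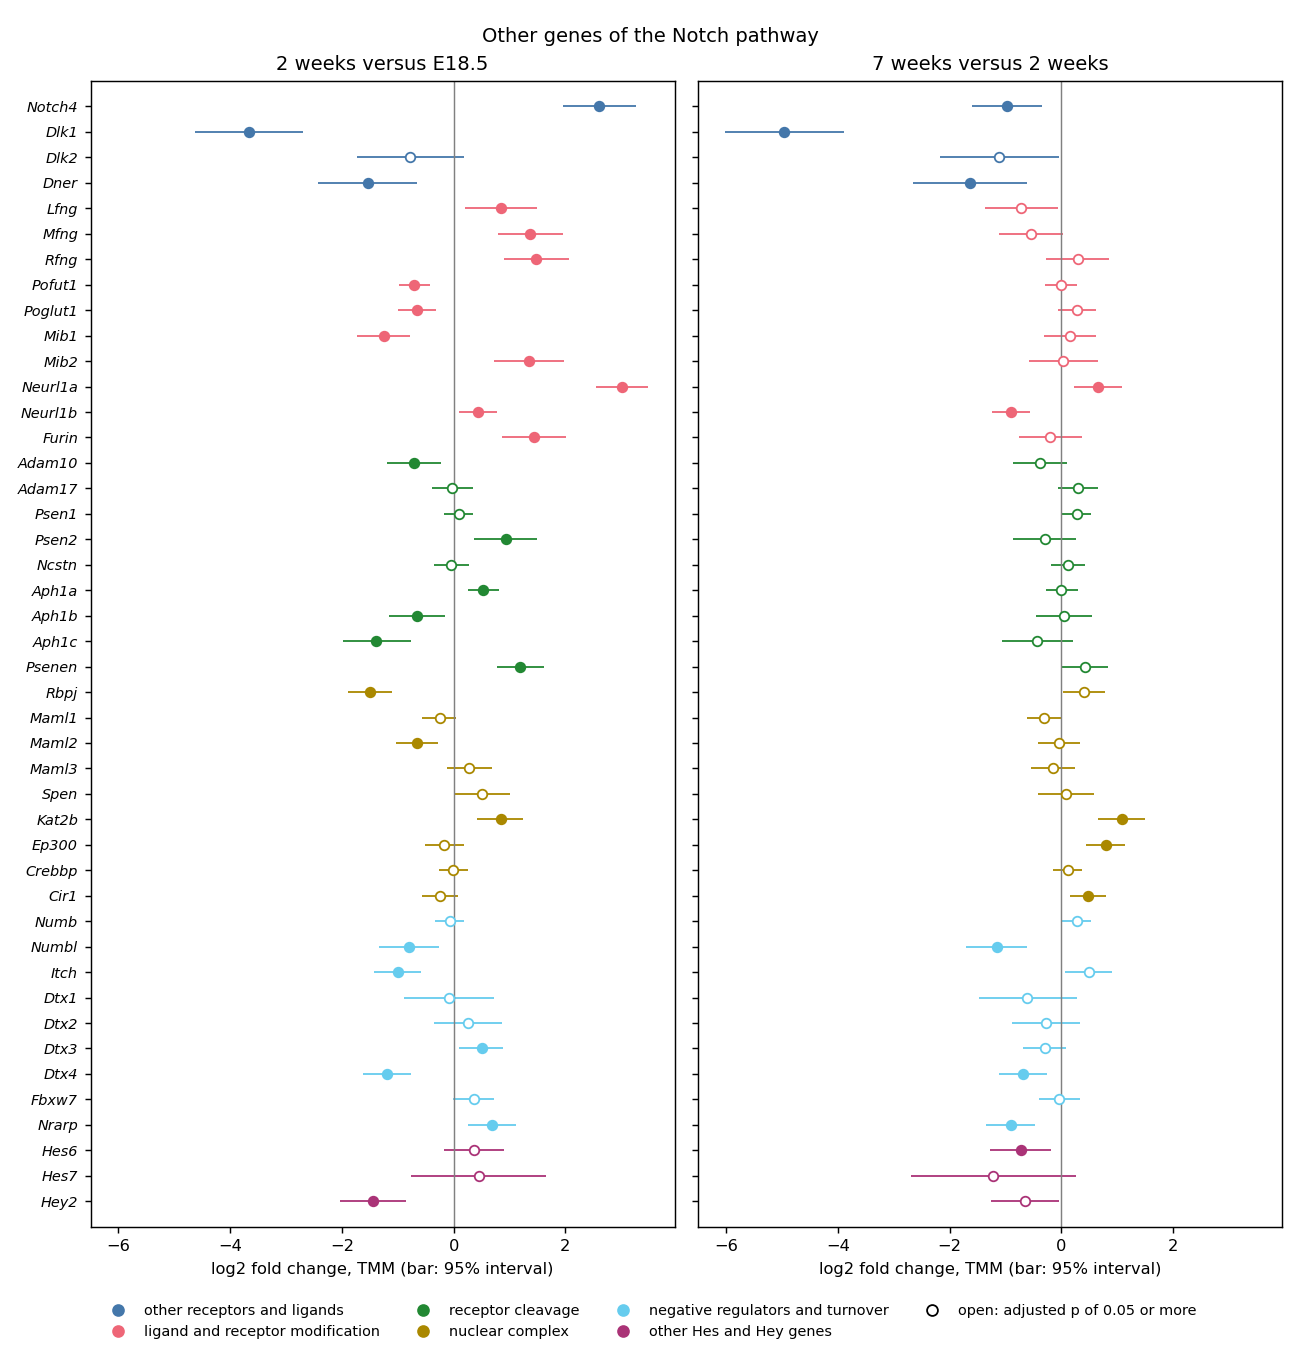
Log2 fold change with TMM and its 95% interval for other pathway genes tested, coloured by role, with filled symbols for an adjusted p under 0.05. In the left panel the ligand and receptor modification genes are all filled, 7 above 0 and 3 below (1 higher and 4 lower on the total count), and in the right panel 12 genes in all are filled.

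Markers of the cell types in the muscle were summed as well, and their calls are to be read against the share of all genes called. With TMM this share was 65.7% up to 2 wks (31.5% higher and 34.2% lower) and 27.5% after (13.5% and 13.9%). For calls on the total count it was 75.1% up to 2 wks (13.2% higher and 61.9% lower) and 32.9% after (4.92% and 28%). The summed level of 12 endothelial markers was 457 to 670, 1278 to 1497 and 932 to 1267 CPM at the 3 ages, with 10 of 12 called higher by 2 wks and 4 lower and 1 higher after (on the total count 6 higher and 1 lower by 2 wks and 1 higher and 9 lower after). The 10 mural markers summed to 705 to 930, 1515 to 2133 and 1251 to 1670 CPM, with 7 higher by 2 wks and 1 higher and 3 lower after (on the total count 5 higher and 2 lower, then 7 lower). The 10 satellite cell markers summed to 138 to 214, 117 to 149 and 90.7 to 97.0 CPM, with 3 higher and 4 lower by 2 wks and 3 lower after (on the total count 6 lower, then 8 lower). The 8 myofibre markers, the check of the labelled tissue, summed to 9986 to 18143, 96729 to 130494 and 117168 to 158916 CPM, and all 8 were higher at 2 wks and 3 rose further (on the total count 7, then none). The 8 fibroblast markers summed to 6529 to 11286, 3416 to 5100 and 850 to 2951 CPM, with 1 higher and 5 lower by 2 wks and 4 lower after. No marker of these lists was at 0 in every library. The part of these shifts in the levels of the 10 Notch genes was not tested.

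Other lists covered cells and tissue that the pieces could also hold. The 6 macrophage markers gave 160 to 196, 67.3 to 92.1 and 19.4 to 63.8 CPM (1 higher and 3 lower by 2 wks, 4 lower after). The 6 Schwann cell markers gave 155 to 263, 147 to 681 and 110 to 165 CPM (3 higher and 1 lower, then 5 lower). The 681 CPM was 2-wk sample 1, and the other 2-wk samples were at 147 to 259 CPM. On the total count the Schwann cell calls were 2 higher and 2 lower, then 6 lower. Red blood cell markers gave 241 to 1025, 146 to 756 and 91.9 to 130 CPM (1 of 6 lower, then 4 lower). Epidermis markers were low, at 6.97 to 57.8, 10.5 to 13.5 and 10 to 19.3 CPM (4 of 6 lower, then 1 higher), as were cartilage and bone markers, at 23.6 to 141, 3.19 to 22.1 and 0.919 to 2.90 CPM (1 higher and 4 lower of 6 tested, then 4 lower). E18.5 sample 2 was the highest of its age for Notch1, Notch2, Notch3, Dll1, Jag2, Hes1, Hey1 and Heyl. It stood apart in the epidermis markers, with 57.8 CPM (others at E18.5 6.97 to 20.5). For cartilage and bone markers it had 141 CPM (others 23.6 to 60.2). It was also the highest E18.5 sample for the myofibre (18143 CPM), satellite cell (214), mural (930), fibroblast (11286) and Schwann cell (263) lists. The part of this in the levels of those genes was not tested. Without that sample the changes up to 2 wks were 0.87 for Notch1, 1.03 for Notch3, 1.23 for Dll1, 2.80 for Jag2, 0.74 for Hey1 and 0.58 for Heyl. With any 1 library left out Notch2 stayed within -1.65 to -1.40 and Hes1 within 0.21 to 0.48.

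Set against the mean log2 level of the endothelial markers in the same library, Dll4 was higher by 0.41 at 2 wks (from -1.95 ± 0.23 to -1.53 ± 0.08, SD, n = 4), with no overlap between the ages. Notch2 and Jag1 were lower by 2.99 and 2.35 on this scale, and Notch1, Notch3, Hes1 and Heyl by 0.80, 0.65, 1.14 and 1.04, each without overlap. Jag2 was higher by 0.95 on it, with overlap. The GC trend was not removed from these levels. After its removal Dll4 and Jag2 rose by 0.95 and 0.88 and the median endothelial marker by 1.09, so neither rise exceeded that of the median marker. Against the mural markers Notch3 changed by -0.38 with overlap and Heyl by -0.76 without. Notch2, Jag1, Hes1 and Dll4 also changed without overlap against them, by -2.72, -2.08, -0.86 and 0.69. After GC removal the median mural marker rose by 0.91, beside 0.95 for Dll4. Relative to the satellite cell markers Jag2, Dll4, Dll1, Notch3, Notch1, Hey1 and Heyl were higher at 2 wks by 2.81, 2.27, 1.5, 1.21, 1.06, 0.99 and 0.83, and Notch2 lower by 1.13, each without overlap. After 2 wks only Dll1 moved without overlap, by -0.73 against the endothelial and by -0.73 against the mural markers. These differences are descriptions within libraries and carry no test, and the share of all genes without overlap on these scales was not computed. Up to 2 wks the median log2 fold change was 1.47 for endothelial, 1.23 for mural and -0.26 for satellite cell markers (all genes -0.09). A gene at the median of all genes would thus be lower against the endothelial and mural markers and slightly higher against the satellite cell markers.

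**Figure D5:**
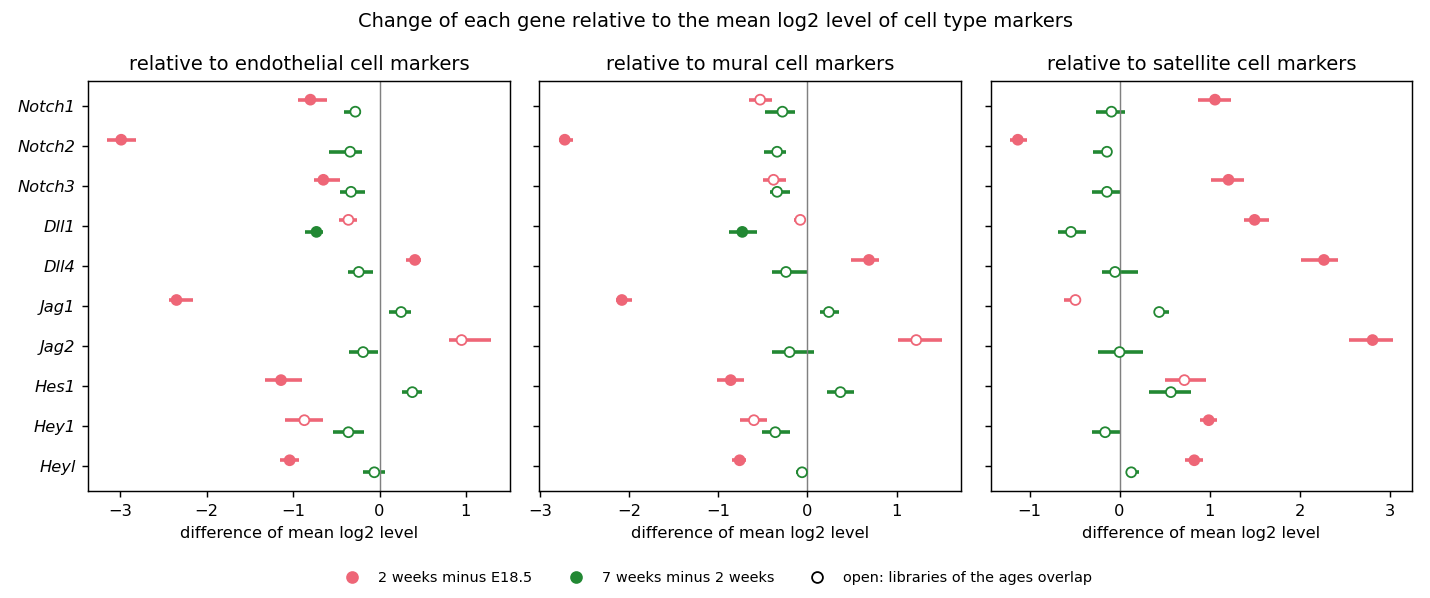
Difference between ages in the mean log2 level of each gene minus the mean log2 level of a marker list in the same library, for endothelial, mural and satellite cell markers; the line through each point spans the values with each library left out, and open symbols mark ages whose libraries overlap. With the GC trend left in, Notch2 lies below 0 against all 3 lists between E18.5 and 2 wks, and Dll4 above 0 against all 3.

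For each gene, the most alike gene outside the lists was found as the smallest root mean square difference of log2 CPM over the 12 libraries, after centring each gene, among 11773 genes. It was Sema4c for Notch1 (0.15), Lima1 for Notch2 (0.15), Sipa1l3 for Notch3 (0.17), Sipa1 for Dll1 (0.15), Rasip1 for Dll4 (0.20), Sbf2 for Jag1 (0.12), Caskin2 for Jag2 (0.20), Hypk for Hes1 (0.17), Ppp2r3d for Hey1 (0.25) and Tmem44 for Heyl (0.14). Rasip1, for example, had a mean of 8.38, 33.5 and 19.5 CPM at the 3 ages beside 9.15, 32.4 and 20.9 CPM for Dll4. Between members, Notch1 was 0.24 from Notch3, 0.32 from Dll1 and 1.14 from Notch2. The points share libraries, age and depth.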

How the data were processed

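RNA of 12 samples of TA muscle pieces from WT 129Pas mice (4 per age) was made into TruSeq stranded mRNA libraries and sequenced as paired-end reads of 100 bp. The authors deposited gene counts (not normalized) as 1 table for all libraries. The submitters' processing notes name bcl2fastq 2.17.1.14, cutadapt 1.10, STAR 2.5.3a, HTSeq 0.6.1p1 and mm10, while the methods of the study name GRCm39; the strand setting of the counting is not given in the sources used here. None of the 18 pairs of libraries within an age agreed within sampling noise.

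Genes were filtered with filterByExpr (19276 kept of 55450), scaled by TMM and tested with edgeR 4.0.16 (quasi-likelihood, age as the only term, all 12 libraries), with Benjamini-Hochberg adjustment over all genes tested and a threshold of 0.05. The test was checked on simulated data. Ratios were tested by exact permutation over 70 regroupings, with a smallest p of 0.0286 before adjustment over 18 tests. Levels per kilobase use the GENCODE M39 canonical transcript, and gene positions are those of M39 (GRCm39). A gene ID in the table had no entry in M39 for 3973 genes (0.0394% of counts). Alternatives were the total count, upper-quartile factors, TMM computed without 37 mitochondrially encoded genes and the top 20, leaving genes unfiltered, a minimum of 10 counts per library, DESeq2 1.42.0, only the 8 libraries compared, a replicate block, removal of the GC trend of each library, and each library left out; removal of the GC trend from ratios and merged exon lengths for shares were added after seeing the data.

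The 10 genes and all lists were chosen with earlier results of these data known. Named from the wider pathway list were genes called at 2 wks with an absolute log2 fold change of at least 1 and all genes called between 2 and 7 wks, with 1 most alike gene for each of the 10. A single gene of the wider list enters the counts but is not reported here by name or in the plot.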

Additional observations from a re-analysis of the deposited data

Results flagged for a closer look

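The ratio of Jag1 to Dll4 counts in E18.5 sample 1 was 8.43, while the other 3 E18.5 samples were between 3.64 and 3.75, so this sample stood apart from its group by Dixon's test. Of 48 sets of 4 samples examined (10 genes and 6 ratios at 3 ages) it was the 1 that stood apart, where chance gives about 1 in 20, or 2.4. In that sample Dll4 was at 5.24 CPM (9.34 to 11.1 in the others) and Jag1 at 44.2 CPM (34.2 to 40.9). Without it the log2 difference of the ratio up to 2 wks was -2.47.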

How the results depend on the processing

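The calls of the 10 genes moved with both library scaling and the GC trend. On the total count 8 were called between 2 and 7 wks and 8 between E18.5 and 7 wks, against 5 and 4 with TMM. After GC removal 3 and 9 were called, and 4 for the difference of the intervals, against 7. Values that turned on the total count were, up to 2 wks, Notch1 -0.33, Notch3 -0.18, Hes1 -0.61, Hey1 -0.26 and Heyl -0.49, for adults against E18.5 Notch3 -1.27, Dll4 -0.09 and Hes1 -1.04, and for the difference of the intervals Hes1 0.18. After GC removal they were, up to 2 wks, Notch1 -0.44, Notch3 -0.42, Hes1 -0.72 and Heyl -0.39, after 2 wks Hes1 0.12, for adults against E18.5 Notch3 -0.81 and Hes1 -0.61, and for the difference Notch3 0.03, Hes1 0.84 and Heyl 0.00; the ratio of Notch3 to Notch1 after 2 wks became 0.00. Near 0, Notch3 in adults against E18.5 was also -0.23 (upper quartile), -0.05 (no filter), -0.15 (at least 10 counts), -0.09 (only 8 libraries) and -0.04 (DESeq2), and Hes1 was -0.01 (upper quartile). Why scaling and GC content moved these values was not tested. TMM without the most abundant and mitochondrially encoded genes left all 40 gene results on their side of the threshold.

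With each library left out, 6 to 9 of the 10 genes were called up to 2 wks, 2 to 7 after, and 5 to 8 for the difference; 7 to 14 of the wider list and 3472 to 6145 of all genes were called between 2 and 7 wks (3472 without 2-wk sample 1). Adults against E18.5 ranged from -0.29 to 0.19 for Notch1, -0.15 to 0.29 for Notch3, -0.17 to 0.09 for Dll1 and -0.17 to 0.07 for Heyl, and Hes1 after 2 wks from -0.23 to 0.03. Ratios that crossed 0 were Notch3 to Notch1 in adults against E18.5 (-0.08 to 0.22) and after 2 wks (-0.23 to 0.07), Hey1 to Hes1 (-0.03 to 0.57) and Heyl to Hes1 (-0.13 to 0.32) up to 2 wks, and Notch2 to Notch1 after 2 wks (-0.35 to 0.15).

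The deviations of samples of 1 number at different ages correlated from -0.283 to 0.514, with 5 of 12 pairs over 0.1, and no source used here says that a number marks shared animals or batches, so the numbers were not taken to pair samples. With the replicate block 37 of 40 gene results stayed on their side of the threshold; Hey1 after 2 wks lost its call (-0.77), and Dll4 after 2 wks (-0.71) and the difference for Notch2 (0.76) gained one. Permuting ages within a number cannot give a p under 0.125 for the ratios. Depth did not limit the 10 genes, whose lowest count was 199.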
